A study of Mus musculus with 6 samples.

Results

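The genes examined were 10 genes of lymphoid priming, *Il7r*, *Il2rg*, *Rag1*, *Rag2*, *Dntt*, *Ikzf1*, *Ikzf2*, *Ikzf3*, *Ebf1* and *Satb1*, chosen by symbol from the 24062 genes listed in the count tables. All 10 were listed, and 9 had at least 1 count in a library. The RNA came from cells of the aorta-gonad-mesonephros (AGM) region, where the first hematopoietic stem cells of the mouse embryo arise, at embryonic day 10.5. Cells were sorted as CD31+ckit+, that is, as cells carrying an endothelial surface protein and a stem and progenitor receptor, and then divided by the Gata2Venus reporter into an intermediate fraction (Vmed, labelled G2Vi) and a high fraction (Vhigh, labelled G2Vh). There were 3 libraries of each fraction, numbered 1 to 3, and both fractions shared the strain label C57BL/6JOlaHsd, the age and the reporter genotype. Per the methods, the embryos carried 1 reporter allele (G2V/+), in which Venus follows an internal ribosome entry site within the *Gata2* locus. Venus therefore reports transcription from that locus, and the protein can outlast the transcript. The paper describes its RNA sequencing values as coming from independent experiments, while the labels give only a replicate number, so p-values measure the spread between these libraries.

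In lymphoid priming, progenitors that still have other fates open begin to transcribe a few genes of the lymphocyte program at low levels. IL-7 receptor and the common gamma chain form a cytokine receptor needed by early lymphocytes, the Ikaros family, Satb1 and Ebf1 are nuclear regulators of lymphoid fate, and the Rag proteins and terminal transferase cut and diversify antigen receptor genes. Some of these genes, Ikaros among them, are also used by stem cells and myeloid cells, whereas the recombination genes are largely restricted to lymphocyte precursors.

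Total gene counts were 8296831 to 9715131 in Vmed and 10660122 to 12035206 in Vhigh. Values are given as CPM, a gene's count scaled to a fixed total of gene counts per library. A threshold of 3 counts per library, taken as the smallest amount that can be shown, corresponded to 0.309 to 0.362 CPM in Vmed and 0.249 to 0.281 CPM in Vhigh. Libraries differed in breadth, with 10427 genes having at least 1 count in Vhigh 1 and 18460 in Vhigh 2. Unique reads outside annotated genes also varied, from 13.5% in Vhigh 3 to 60.7% in Vhigh 2. The sorted features themselves were *Kit*, which lay higher in every Vhigh library than in any Vmed library (log2 fold change 1.91, SE 0.59), *Pecam1* (-0.52) and *Gata2*, whose CPM overlapped between fractions (0.78, SE 0.74). *Kit*, *Pecam1* and *Gata2* did not pass the test after adjustment (Benjamini-Hochberg adjusted p = 0.9998 for each in edgeR's quasi-likelihood test), and *Kit* passed in the likelihood ratio test with the replicate block (adjusted p = 0.034).

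Promoter windows of 300 bases were listed by RefSeq on GRCm38.p6 for 8 of the 10 genes, 14 windows in all, each running from 250 bases before a start site to 50 after it. *Ikzf2* and *Ikzf3* had no entry. Because the fractions were separated by a reporter of *Gata2*, which binds GATA letters, each window was searched on both strands for AGATAA or TGATAA or AGATAG or TGATAG. *Rag1* held 2 such matches and *Dntt* held 1, and none was present in the windows of *Ikzf1*, *Satb1*, *Il7r*, *Il2rg*, *Ebf1* or *Rag2*. Of all 32851 windows in the table, 29.8% held a match. The same search for E box letters (CAGCTG or CACCTG or CAGGTG) found a match in 32.9% of all windows, that for ETS letters (GGAAGT or AGGAAG, which can overlap each other) in 45.8%, and that for RUNX letters (TGTGGT or TGCGGT) in 22.4%. The 250 bases before both start sites of *Ikzf1* are shown because this gene had the largest log2 fold change among the 5 that were tested. *Satb1*, which also separated the fractions, and *Dntt*, a gene near the detection limit whose window holds GATA letters, are shown for comparison. Sequences are written 5′ to 3′ on the strand of the gene, and capitals mark the matches. The windows are chr11:11685675-11685924 (plus strand) and chr11:11689927-11690176 (plus strand) for *Ikzf1*, chr17:51833291-51833540 (minus strand) for *Satb1* and chr19:41029025-41029274 (plus strand) for *Dntt*.
Ikzf1, start site 1: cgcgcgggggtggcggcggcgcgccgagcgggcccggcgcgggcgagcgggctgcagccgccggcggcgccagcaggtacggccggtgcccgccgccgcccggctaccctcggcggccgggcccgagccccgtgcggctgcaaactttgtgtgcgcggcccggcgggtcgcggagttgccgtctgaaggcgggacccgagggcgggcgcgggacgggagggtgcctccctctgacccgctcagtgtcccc
Ikzf1, start site 2: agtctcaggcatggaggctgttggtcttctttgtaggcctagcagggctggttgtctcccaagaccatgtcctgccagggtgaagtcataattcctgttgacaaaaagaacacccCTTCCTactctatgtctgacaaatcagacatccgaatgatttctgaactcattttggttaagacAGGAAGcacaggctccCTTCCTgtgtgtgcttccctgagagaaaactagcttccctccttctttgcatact
Satb1, start site 1: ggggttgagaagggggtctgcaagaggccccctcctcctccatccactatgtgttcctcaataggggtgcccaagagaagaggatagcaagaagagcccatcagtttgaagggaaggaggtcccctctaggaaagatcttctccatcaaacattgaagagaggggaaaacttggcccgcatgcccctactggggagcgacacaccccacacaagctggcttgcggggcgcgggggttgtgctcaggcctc
Dntt, start site 1: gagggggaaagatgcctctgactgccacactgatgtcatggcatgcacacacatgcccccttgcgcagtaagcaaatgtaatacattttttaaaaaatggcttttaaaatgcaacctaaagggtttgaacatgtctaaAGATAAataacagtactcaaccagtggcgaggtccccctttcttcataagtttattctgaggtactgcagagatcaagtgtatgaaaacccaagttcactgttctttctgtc

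The window of the first *Ikzf1* start site had a GC content of 82.0% and none of the letters searched. That of the second start site had 47.6% GC and 3 ETS matches. No match was present before the *Satb1* start site shown, but the 50 bases after it, not printed, held 1 E box and 2 overlapping ETS matches. Of the other 4 *Satb1* windows, the one on chr17:51826539-51826838 held 3 E box and 2 ETS matches, another 2 held 1 ETS match each and the last held none. *Dntt* had the single GATA match. A match is a description of letters only, and binding was not measured.

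Detection was examined first. At 3 counts or more, the number of the 10 genes detected was 5, 6 and 6 in Vmed 1, 2 and 3 and 4, 8 and 6 in Vhigh 1, 2 and 3. The corresponding shares of all listed genes were 53.6%, 61.8% and 50.8% in Vmed and 37.8%, 72.4% and 53.4% in Vhigh. The library with the fewest of the 10 genes (Vhigh 1) and the one with the most (Vhigh 2) were thus also those with the fewest and the most genes of any kind. The number detected did not separate the fractions. The counts of detected genes per library were unchanged when every library was thinned to the smallest total. In all 6 libraries 4 genes were detected (*Il2rg*, *Ikzf1*, *Ikzf2* and *Satb1*), 4 were detected in some (*Il7r*, *Dntt*, *Ikzf3* and *Ebf1*) and 2 in none (*Rag1* and *Rag2*).

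**Figure D1:**
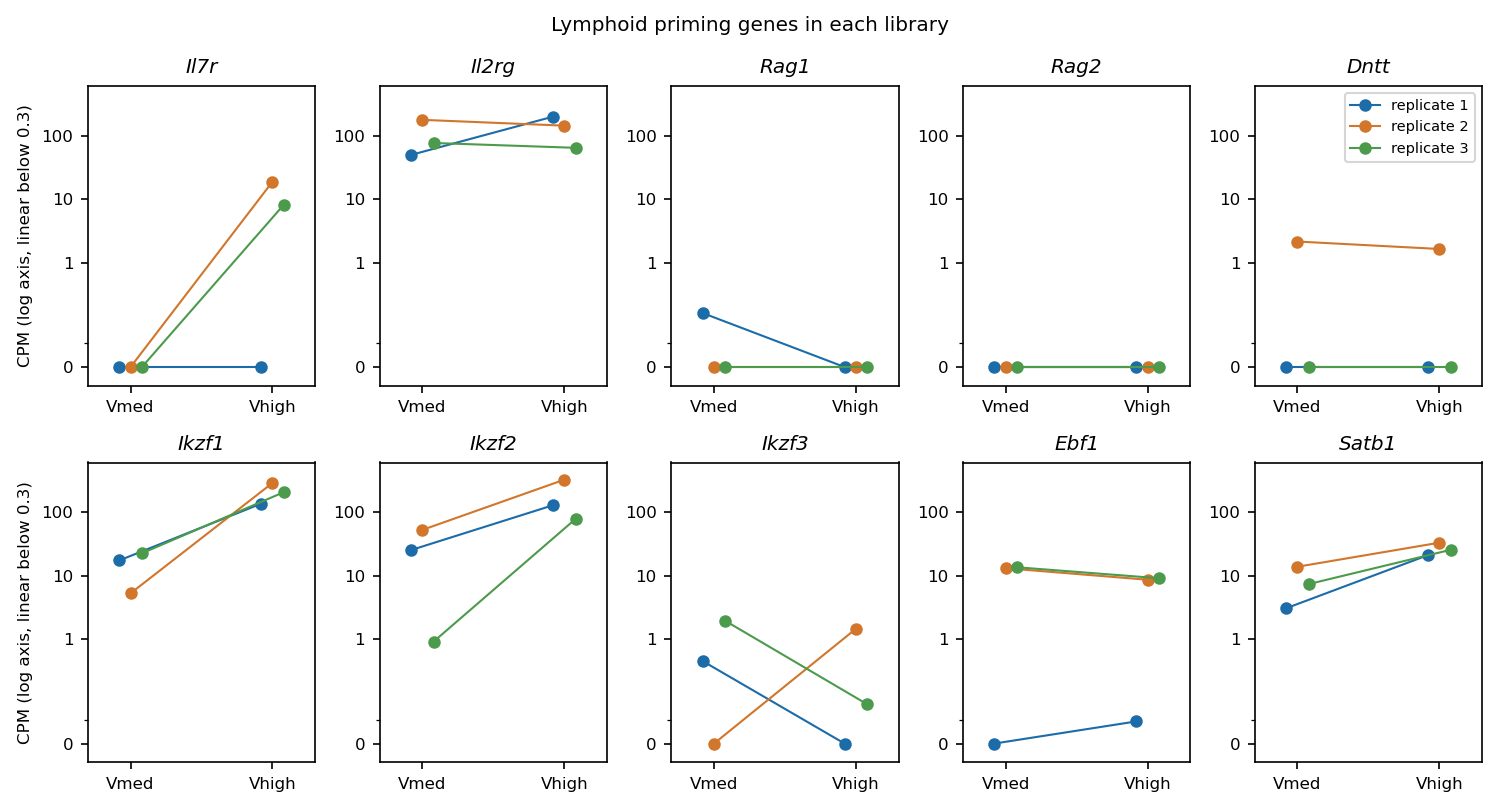
CPM of each of the 10 genes in each library, on a log axis that is linear below 0.3 CPM, with Vmed on the left and Vhigh on the right of each panel and a line joining libraries of the same replicate number. Points are shifted sideways by replicate number so that libraries at 0 can be told apart. *Ikzf1*, *Ikzf2* and *Satb1* are higher in Vhigh in all 3 pairs, and *Rag2* is at 0 in all 6 libraries.

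The recombination genes were at or near the limit of detection. *Rag1* and *Rag2*, the recombinase subunits that cut antigen receptor genes, had together 2 counts, both of *Rag1* in Vmed 1 (0.229 CPM). Expression of *Rag1* or *Rag2* was therefore not detectable at this depth. The upper limits of the 95% exact binomial intervals were 0.307 to 0.445 CPM in libraries with 0 counts. For *Rag1* in Vmed 1 the upper limit was 0.827 CPM. Parts of both genes (80 bases of *Rag1* exons and 208 of *Rag2* exons) overlap exons of *B230118H07Rik*, and the strand used in counting is not given in the sources used here. *Dntt*, the polymerase that adds untemplated bases to antigen receptor joints, had 18 counts in Vmed 2 and 18 in Vhigh 2 and none in the other 4 libraries. This corresponded to 2.17 CPM (95% exact binomial interval 1.29 to 3.43) and 1.66 CPM (0.982 to 2.62). *Dntt* was thus seen in replicate 2 of both fractions, the replicate number with the highest share of unique reads outside genes in each fraction (49.2% and 60.7%). The part of these reads in the *Dntt* counts was not tested.

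Of the cytokine receptor genes, *Il7r* was counted in 2 Vhigh libraries and *Il2rg* in both fractions. *Il7r*, which encodes the IL-7 receptor alpha chain, had 0 counts in all 3 Vmed libraries and in Vhigh 1, and 205 and 99 counts in Vhigh 2 and 3 (18.9 and 8.23 CPM). The mean of Vhigh was 9.03 ± 9.46 CPM (SD, n = 3), which is 26.7-fold the mean 3-count threshold of the Vmed libraries (0.338 CPM, per library). The fractions nonetheless overlapped, since 1 Vhigh library had no count, and the exact two-sided permutation test gave p = 0.4. The lowest p that 3 libraries against 3 allow in this test, over 20 arrangements, is 0.1.

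*Il2rg*, the common gamma chain shared by the receptors for IL-2, IL-7 and IL-15 and others, was detected in every library. Its CPM was 49.7, 177 and 76.5 in Vmed and 198, 143 and 64.2 in Vhigh. The lowest values were in Vmed 1 and Vhigh 3, and the 2 ranges overlapped widely. Means were 101 ± 66.9 and 135 ± 67.2 CPM (SD, n = 3), and the log2 fold change of 0.43 (SE 0.67) was smaller than its error. Vhigh was higher in pair 1 only, by 1.98 on the log2(CPM + 0.5) scale, and differed by -0.30 and -0.25 in pairs 2 and 3. Without Vhigh 1 the log2 fold change was -0.074.

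Of the Ikaros family, *Ikzf1* and *Ikzf2* had the 2 largest log2 fold changes among the 5 tested genes, and *Ikzf3* was near the detection limit. *Ikzf1* encodes Ikaros, a zinc finger protein that is needed for lymphocyte development and is also active in stem cells. Its CPM was 17.4, 5.30 and 22.5 in Vmed and 136, 287 and 205 in Vhigh. The lowest Vhigh library was 6.01 times the highest Vmed library, so the fractions did not overlap. The ratio of the means, 209 ± 75.6 to 15.1 ± 8.85 CPM (SD, n = 3), was 13.9. The log2 fold change was 3.71 (SE 0.73), and same-numbered pairs differed by 2.93, 5.63 and 3.16 on the log2(CPM + 0.5) scale. The exact permutation test gave p = 0.1, the lowest it can give. By unadjusted p *Ikzf1* ranked 6 of 12688 genes in edgeR's quasi-likelihood test, but the adjusted p (Benjamini-Hochberg) was 0.93 and the difference did not pass the threshold of 0.05.

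*Ikzf2* encodes Helios, a relative of Ikaros found in progenitors and in part of the T cells. Its CPM was 25.3, 52.4 and 0.926 in Vmed and 128, 322 and 78.0 in Vhigh. Every Vhigh library lay above every Vmed library, the nearest by 1.49 times. Within Vmed the level was uneven, with only 9 counts in Vmed 3 against 221 and 435 in Vmed 1 and 2. The ratio of the means was 6.71 and the log2 fold change 2.68 (SE 1.11), with an adjusted p of 0.9998 in edgeR's quasi-likelihood test (Benjamini-Hochberg). The unadjusted p of *Ikzf2* in that test, 0.036, was 0.072 without Vmed 1 and 0.14 without Vhigh 2.

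*Ikzf3* encodes Aiolos, the member of the family used later in lymphocyte development. It had 4, 0 and 19 counts in Vmed and 0, 16 and 2 in Vhigh, which is at most 1.96 CPM. The fractions overlapped (exact permutation test, p = 0.8) and the gene was too low to be tested across all genes. Per unit of length, that is, as CPM divided by exon length (RPKM), *Ikzf1* took 57.4%, 16.9% and 92.8% of the 3 Ikaros genes in Vmed and 68.1%, 64.0% and 84.1% in Vhigh. The Vhigh libraries fell within the wide Vmed range, so the balance of *Ikzf1* and *Ikzf2* did not separate the fractions. *Ikzf5*, a further family member that is widely expressed, had 7.86, 9.31 and 5.83 RPKM in Vmed and 16.2, 5.07 and 3.72 RPKM in Vhigh and did not separate them either.

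**Figure D2:**
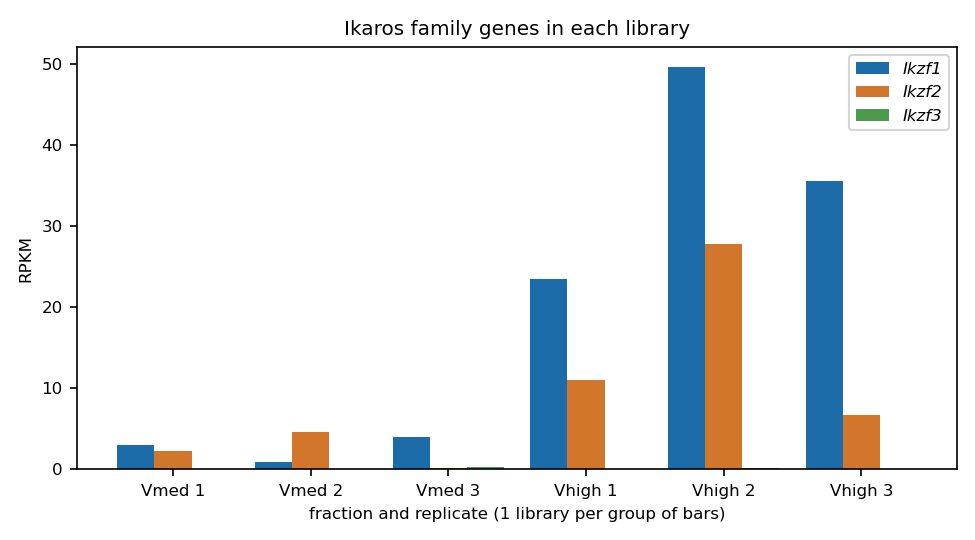
RPKM (vertical axis) of *Ikzf1*, *Ikzf2* and *Ikzf3* as bars, 1 group of bars for each library on the horizontal axis. *Ikzf1* ranges from 0.918 to 3.90 RPKM in Vmed and from 23.5 to 49.6 RPKM in Vhigh, and *Ikzf3* is too low to be seen.

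Of the remaining regulators, *Satb1* separated the fractions and *Ebf1* did not. *Satb1* encodes a chromatin organizer of stem cells and T cell precursors. Its CPM was 3.09, 13.9 and 7.41 in Vmed and 21.1, 33.1 and 25.6 in Vhigh, the lowest Vhigh library being 1.52 times the highest Vmed library. Means were 8.12 ± 5.42 and 26.6 ± 6.03 CPM (SD, n = 3), with a ratio of 3.27 and a log2 fold change of 1.68 (SE 1.29). All 3 pairs were higher in Vhigh, by 2.59, 1.22 and 1.72 on the log2(CPM + 0.5) scale. *Satb1* did not pass the test (Benjamini-Hochberg adjusted p = 0.9998 in edgeR's quasi-likelihood test). By unadjusted p in that test (0.22) it ranked 1431 of 12688 genes.

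*Ebf1* encodes a factor that commits progenitors to the B lineage and is also used by stromal cells. Its counts were 0, 109 and 132 in Vmed and 1, 94 and 110 in Vhigh. As for *Dntt*, the replicate number divided the libraries and the fraction did not, with both libraries numbered 1 at 0 to 0.0938 CPM and the other 4 between 8.65 and 13.6 CPM. The log2 fold change was -0.65 (SE 2.24), an error more than 3 times the estimate. Markers of mesenchyme and mural cells summed to 2218 to 4634 CPM in Vmed and 286 to 652 CPM in Vhigh, and the part of such cells in the *Ebf1* counts was not tested.

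Across the 10 genes, 5 passed the filter on low counts and were tested (*Il2rg*, *Ikzf1*, *Ikzf2*, *Ebf1* and *Satb1*). None of the 5 passed the adjusted threshold in edgeR's quasi-likelihood test, where 0% of the 12688 tested genes passed, and 259 genes had an unadjusted p under 0.05. *Ikzf1* and *Ikzf2* had an unadjusted p under 0.05 with a higher level in Vhigh, against 0.867% of tested genes. Of the 10 genes, 3 lay higher in every Vhigh library than in any Vmed library (*Ikzf1*, *Ikzf2* and *Satb1*), compared with 4.15% of tested genes and 2.41% of all listed genes, and 0 lay lower throughout, compared with 4.71% of tested genes. These shares are descriptions, since the 10 genes were chosen with results of these data known. The 10 genes summed to 96.1 to 263 CPM in Vmed and 391 to 815 CPM in Vhigh. Most of this sum came from *Il2rg*, *Ikzf1* and *Ikzf2*, with means of 101, 15.1 and 26.2 CPM in Vmed and 135, 209 and 176 CPM in Vhigh. *Ikzf1* and *Ikzf2* made most of the difference, so the sum does not describe the other genes. In bulk RNA, fewer cells of a type and less RNA per cell cannot be told apart.

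**Figure D3:**
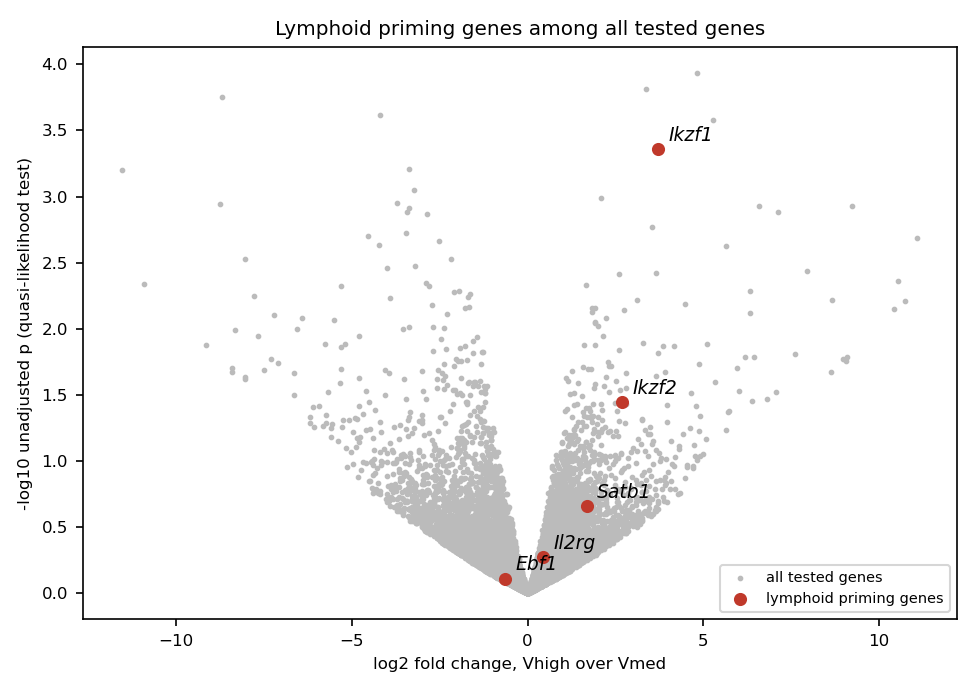
Unadjusted p of the quasi-likelihood test as -log10 (vertical axis) against log2 fold change, Vhigh over Vmed (horizontal axis), for the 12688 tested genes in grey and the 5 tested lymphoid priming genes in red. *Ikzf1*, at a log2 fold change of 3.71, is 1 of the 6 highest points, and *Il2rg*, *Ebf1* and *Satb1* lie within the cloud.

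The call for *Ikzf1* depended on the test. Its adjusted p was 0.0097 with edgeR's likelihood ratio test, 0.018 with edgeR's exact test, 0.00026 with DESeq2, 0.0081 with the quasi-likelihood test without the filter and 0.0013 with the likelihood ratio test and the replicate block. The shares of genes called by these tests were 0.166%, 0.11%, 0.402%, 0.185% and 0.583%, and *Ikzf1* was the only one of the 10 genes called by any of them. When the replicate number was added to the quasi-likelihood fit as a block, *Ikzf1* had a log2 fold change of 3.88 (SE 0.69, adjusted p = 0.63), *Ikzf2* 3.51 (SE 0.96) and *Satb1* 1.90 (SE 1.28), and 0 genes were called. Leaving out 1 library at a time kept the log2 fold change of *Ikzf1* between 3.29 and 4.11, that of *Ikzf2* between 2.07 and 3.56 and that of *Satb1* between 1.31 and 2.28.

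**Figure D4:**
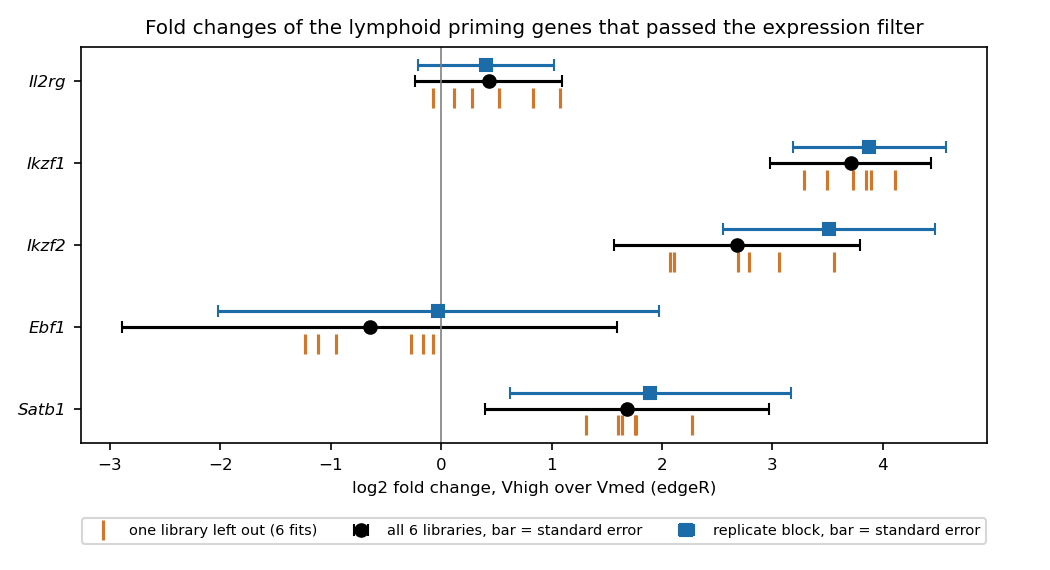
Log2 fold change (Vhigh over Vmed) of the tested genes with all 6 libraries (black) and with the replicate block (blue), bars giving the standard error, and with 1 library left out (orange ticks). *Ikzf1* stays between 3.29 and 4.11 with 1 library left out, and the bars of *Il2rg* and *Ebf1* cross 0.

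Per unit of length, *Il2rg* had the highest mean RPKM of the 10 genes in both fractions (20.8 to 74.0 RPKM in Vmed and 26.9 to 82.9 RPKM in Vhigh). In Vhigh it was followed by *Ikzf1* (36.2 ± 13.1 RPKM, SD, n = 3) and *Ikzf2* (15.1 ± 11.1 RPKM), and *Il2rg* and *Ikzf1* did not differ beyond their spread. *Il7r* (1.94 ± 2.03 RPKM), *Satb1* (1.40 ± 0.317) and *Ebf1* (0.611 ± 0.522) came next in Vhigh. In Vmed, *Ikzf1* (2.61 ± 1.53 RPKM) and *Ikzf2* (2.26 ± 2.22) were close to each other and well under *Il2rg*.

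To see whether *Ikzf1* moved with other hematopoietic genes, its RPKM was set against that of *Ptprc*, *Kit*, *Runx1* and *Gata2*, which were chosen after the data were seen. The log2 ratio of *Ikzf1* to *Ptprc*, the gene of the pan-leukocyte protein CD45, was 2.68, -1.79 and 0.48 in Vmed and 4.74, 3.32 and 2.71 in Vhigh, without overlap. The log2 ratio to *Gata2* was -1.63, -2.57 and -1.70 in Vmed and 1.69, 1.70 and 0.43 in Vhigh, and that to *Kit* was also separated, though narrowly (highest Vmed -0.76, lowest Vhigh -0.72). The ratio to *Runx1*, a regulator of the endothelial to hematopoietic transition, overlapped between fractions (Vmed 2.98, -1.47 and 0.59, Vhigh 2.75, 2.38 and 1.61). The 4 ratios each of *Ikzf2*, *Il2rg* and *Satb1* all overlapped between fractions. Mean log2 ratios of *Ikzf2* differed, Vhigh minus Vmed, by 1.36 (*Runx1*) to 3.06 (*Gata2*), and those of *Il2rg* by -1.95 (*Runx1*) to -0.25 (*Gata2*). Those of *Satb1* went in different directions. The mean log2 ratio of *Satb1* was higher in Vhigh against *Ptprc* (-1.06, compared with -2.17 in Vmed) and *Gata2* (-3.38 and -4.59). It was lower against *Kit* (-5.04 and -4.85) and *Runx1* (-2.41 and -1.92).

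Genes around the 10 were taken from lists of their pathways and read in edgeR's quasi-likelihood test. Of 11 genes of JAK-STAT signaling and of receptor chains that pair with *Il2rg* or *Il7r* products, 8 were tested. None passed, also at an unadjusted p under 0.05, and the median log2 fold change was 0.61 against -0.02 over all tested genes. *Il15ra*, a receptor chain for IL-15, lay higher in every Vhigh library (log2 fold change 2.64, SE 1.79). Of 9 genes that act in Rag cutting or in the end joining that follows it, 9 were tested and 0 passed, with or without adjustment (median 0.07). Among them *Xrcc6* and *Prkdc*, which bind and process DNA ends in all cells, lay higher throughout in Vhigh (0.92, SE 0.57, and 0.89, SE 0.91). All 9 of these genes were detected in 5 of the 6 libraries. In Vhigh 1, 7 of them were detected, and *Lig4* and *Nhej1* had 0 counts. *Rag1* and *Rag2* were not detected in any library.

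Of 21 other early lymphoid regulators, 18 were tested and 0 passed after adjustment, 4 having an unadjusted p under 0.05 (2 higher and 2 lower in Vhigh), and their median log2 fold change was -0.64. Of the 18, 10 had a negative log2 fold change, and 2 lay higher and 4 lower in every Vhigh library. Single genes lay at both ends. *Flt3*, a cytokine receptor of multipotent and lymphoid-primed progenitors, had 0.114, 2.05 and 0 CPM in Vmed and 14.1, 38.6 and 35.4 CPM in Vhigh (log2 fold change 5.32, SE 2.04). *Myb*, a factor of definitive progenitors, had 1.83, 1.33 and 5.97 CPM in Vmed and 73.3, 199 and 104 CPM in Vhigh (5.26, SE 0.97). Both were separated in the same direction as *Ikzf1*. *Id2* and *Id3*, inhibitors of E proteins, lay lower in every Vhigh library (-2.32, SE 0.79, and -1.79, SE 0.53). So did the regulators *Tcf4* (-0.90, SE 0.47) and *Lef1* (-1.73, SE 1.46). The adjusted p was 0.66 for *Myb* and 0.9998 for *Flt3*, *Id2* and *Id3* (edgeR's quasi-likelihood test, Benjamini-Hochberg). As for *Ikzf1*, the call for *Myb* depended on the test, with an adjusted p of 0.0047 without the filter, 0.0022 with edgeR's likelihood ratio test, 0.0036 with edgeR's exact test, 1.2e-06 with DESeq2 and 0.00026 with the likelihood ratio test and the replicate block. *Id2* passed without the filter (adjusted p = 0.034), and *Id2* and *Id3* passed in the likelihood ratio test with the replicate block (0.021 and 0.0035). No gene of the other 4 pathway lists was called in any of these fits.

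Of 10 subunits of the NuRD complex, a chromatin remodeler that Ikaros binds, 10 were tested and 0 passed, with or without adjustment, with a median of 0.06. The abundant subunit *Rbbp4* averaged 620 ± 111 and 641 ± 189 CPM (SD, n = 3), so its level overlapped between fractions where *Ikzf1* did not. *Chd3* lay lower in every Vhigh library (-1.39, SE 1.84). Of 8 paralogs of the 10 genes, 6 were tested and 0 passed after adjustment (median -0.97), and the only one with an unadjusted p under 0.05, *Poll*, a polymerase related to *Dntt* that acts in general repair, was lower in every Vhigh library (-1.65, SE 0.72).

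Lymphocyte markers were read beside these values. Of 22 markers of B, T and NK cells, 2 passed the filter, *Cd79b* (log2 fold change 0.76, SE 1.64) and *Lck* (-0.57, SE 0.87), and both overlapped between fractions. The number detected was 7, 10 and 4 in Vmed and 2, 18 and 5 in Vhigh, with *Ly6d*, a marker of early lymphoid progenitors, at 0 in all 6 libraries. The shares of all listed genes detected were 53.6%, 61.8% and 50.8% in Vmed and 37.8%, 72.4% and 53.4% in Vhigh. The summed level was 47.9 to 96.4 CPM in Vmed and 11.8 to 131 CPM in Vhigh. Most of it came from *Lck* (mean 54.7 CPM in Vmed and 38.6 CPM in Vhigh) and *Cd79b* (12.3 and 22.4 CPM). The sum therefore does not describe the other markers. The library with the most markers, Vhigh 2, was also the one with the most genes of any kind and the most reads outside genes. Vhigh 2 held *Dntt* and the highest *Il7r* value. The part of lymphocytes, or of this breadth, in the *Il7r* and *Dntt* counts was not tested. In Vhigh 3, where *Il7r* had 99 counts, 5 markers were detected.

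Markers of other cell types were read in the same way. Of the 11 hematopoietic stem and progenitor markers, 11 had a positive log2 fold change, against 48.9% of all tested genes. An unadjusted p under 0.05 was found for 2 of them, and 4 lay higher in every Vhigh library. Their sums overlapped, at 444 to 1144 CPM in Vmed and 737 to 2517 CPM in Vhigh. The largest part was *Cd34*, at 304 to 739 CPM in Vmed and 435 to 1501 CPM in Vhigh. *Hlf*, a stem cell factor, had a log2 fold change of 5.64 (SE 1.41) and *Runx1* of 2.12 (SE 0.91). Of 13 macrophage and monocyte markers 12 were listed in the files, and all 12 were tested and negative, 5 of them at an unadjusted p under 0.05, with sums of 1067 to 2269 CPM in Vmed and 185 to 852 CPM in Vhigh. Sums of endothelial markers were 1462 to 5629 CPM in Vmed and 1150 to 3836 CPM in Vhigh. Those of megakaryocyte markers were 385 to 886 and 159 to 417 CPM, and of erythroid markers 188 to 602 and 101 to 233 CPM. Mast cell markers summed to 27.7 to 60.2 and 39.3 to 137 CPM, the highest value, in Vhigh 1, being almost all *Cpa3* (137 CPM). Neural markers summed to 48.9 to 325 and 19.1 to 70.4 CPM. The mesenchyme and mural cell markers, whose sums are given beside *Ebf1*, were negative for 10 of 11 genes, with a median log2 fold change of -2.63, and 6 had an unadjusted p under 0.05 and lay lower in every Vhigh library. Among these were *Lum*, a matrix proteoglycan (752 ± 511 against 40.7 ± 26.8 CPM, SD, n = 3), and the collagen gene *Col1a2* (516 ± 323 against 51.5 ± 28.1 CPM). In edgeR's quasi-likelihood test 0 genes of the marker lists passed the adjusted threshold. The number passing was 6 without the filter, 3 with the likelihood ratio test, 3 with the exact test, 9 with DESeq2 and 13 with the likelihood ratio test and the replicate block. All of these were lower in Vhigh except *Hlf*, which was higher and passed in the last 2, and most were mesenchyme or macrophage markers. The part of cell composition in the *Ikzf1*, *Ikzf2* and *Satb1* values was not tested.

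**Figure D5:**
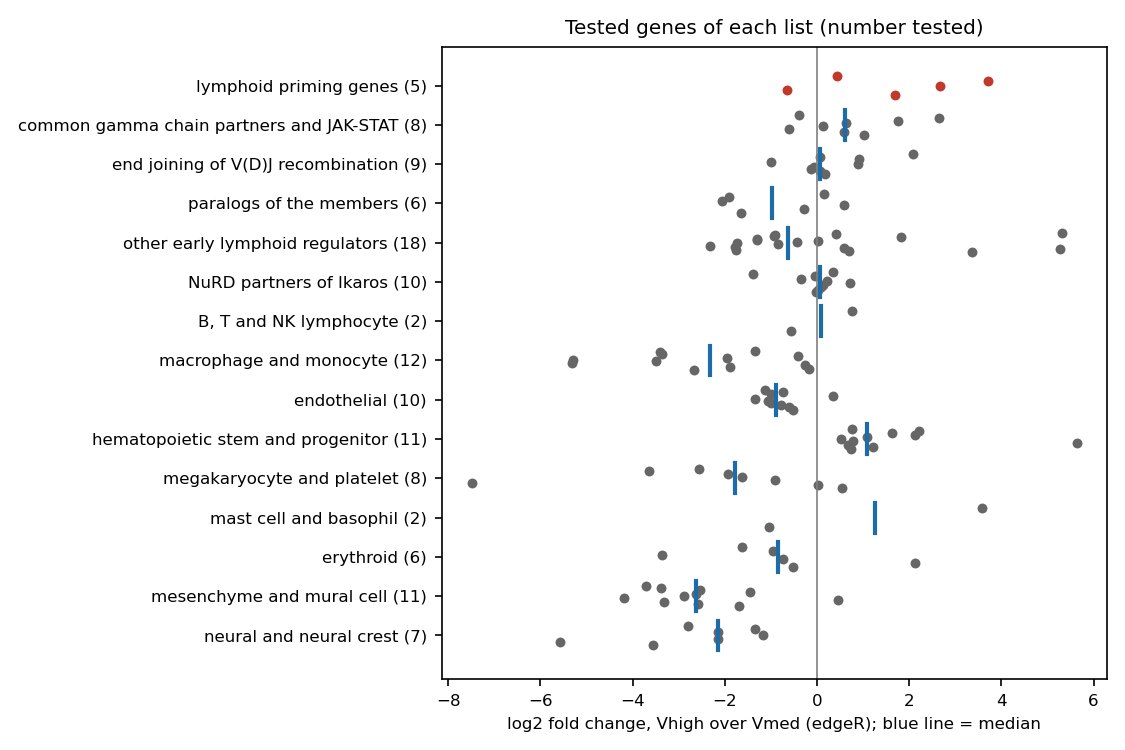
Log2 fold change (Vhigh over Vmed, horizontal axis) of each tested gene of each list, 1 point for a gene, with the number tested in brackets and a blue line at the median of each list other than the lymphoid priming genes (red). All 11 hematopoietic stem and progenitor markers lie to the right of 0 and all 12 macrophage and monocyte markers to the left.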

How the data were processed

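Raw read counts per gene of 6 libraries were used as deposited. Per the methods and the submitters' processing notes, the authors prepared RNA with SMARTer, sequenced single 50-base reads, aligned them to GRCm38/mm10 with TopHat and Bowtie 1.1.2 and listed HTSeq for counting. The annotation and strand setting are not given in the sources used here. Lines that name no gene (reads outside genes, ambiguous at 0.459% to 0.834% of unique reads) were left out of library totals.

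The comparison of fractions used edgeR 4.0.16 (R 4.3.3), with filterByExpr (12688 of 24062 genes), TMM (factors 0.919 to 1.15) and the quasi-likelihood test, with Benjamini-Hochberg adjustment over all tested genes at 0.05. The fraction was the only term, and the replicate number entered neither this fit nor the permutation test below. Single genes were compared on log2(CPM + 0.5) by exact two-sided permutation (SciPy 1.17.1). Intervals are 95% Clopper-Pearson. Intervals and the 3-count threshold cover counting error only, as reads carry no molecular identifiers. RPKM used exon-union lengths of GENCODE annotation of GRCm38, available for 22750 symbols.

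Alternatives were DESeq2 1.42.0, voom (limma 3.58.1), the exact and likelihood ratio tests of edgeR, a robust fit, other normalizations, no filter, thinning, each library left out, and the replicate number as a block. The pairing comes from the numbers in the labels. Residuals of same-numbered libraries correlated at r = 0.21, 0.21 and 0.39 across genes, and those of different numbers between fractions at -0.29 to -0.01. Residuals were taken from the mean of each fraction, so positive values for the same number force lower ones for different numbers. The latter are therefore no separate support for the pairing. The share of gene counts in *Rn45s* also followed the number, at 10.5% in Vmed 3 and 7.47% in Vhigh 3 against 0.887% to 1.53% elsewhere. Scripts were tested on simulated data, where recovery of planted differences was required only at a dispersion far below the median of these libraries (1.13). That test does not show how many real differences could be called here. Genes named besides the 10 were mostly drawn from those of each list with an unadjusted p under 0.05 or no overlap, or from the most abundant, at most 4 a list. Not every such gene is named, and for several marker lists, the macrophage list among them, none is. *Tcf4* and *Lef1* were added, so that all tested genes without overlap in their list are named. The 10 genes and all lists were chosen with earlier results of these data known.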

Additional observations from a re-analysis of the deposited data

How the results depend on the processing

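With 3 libraries a fraction and a biological coefficient of variation of 1.16, only large differences could be called, and genes under 3 counts could not be assessed. The quasi-likelihood test called 0 genes of any kind. The number was 37 without the filter, 21 with the likelihood ratio test, 14 with the exact test, 51 with DESeq2 and 74 with the likelihood ratio test and the replicate block, and 0 to 1 when 1 library was left out (1 without Vhigh 1). Of the 10 genes, 1 (*Ikzf1*) was called in each of the first 5 of these, with log2 fold changes of 3.70, 3.71, 3.71, 3.70 and 3.88. The quasi-likelihood fit that included the replicate block called 0 genes. Under the other normalizations, voom, the robust fit and thinning *Ikzf1* was not called, and its direction was the same. Directions reversed for *Ebf1* with voom (0.037), for *Il2rg* without Vhigh 1 (-0.074, range -0.074 to 1.08 with 1 library left out) and for *Dntt*, which was below the filter, without Vhigh 1 and without Vhigh 3 (range -1.10 to 0.14). The causes were not tested.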
